A study of Mus musculus with 20 samples.

Results

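Ac-6-FP was compared with its vehicle in Ly6Chi monocyte-derived macrophages (MoMac) sorted from fibrotic mouse liver. The 10 Ly6Chi libraries, of 20 in the series, were taken by their labels, 5 from mice exposed to Ac-6-FP (mice 16 to 20) and 5 from mice exposed to vehicle (mice 11 to 15). All mice were male C57BL/6J animals of 10 to 12 weeks that carried fibrosis induced by carbon tetrachloride (CCl4, 0.6 ml/kg, 2 injections per week for 4 weeks), so vehicle mice were injured too and no uninjured group enters. Ac-6-FP (0.25 mg/kg) or vehicle (1% DMSO in PBS) was injected before the last CCl4 dose and then daily, and livers were collected 2 days after that dose. Cells were gated as CD11b and F4/80 positive and as Ly6G, CD11c and CD3 negative, and were then divided by their Ly6C level, and each library came from 1 mouse. Values are normalized counts, that is, reads counted on the constitutive regions of a gene and divided by a size factor of the library, with no division by gene length.

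Ly6C marks monocytes that have recently left the blood, and in injured liver these cells become inflammatory macrophages before they turn into a Ly6Clo, restorative form. Mucosal-associated invariant T (MAIT) cells recognise microbial riboflavin metabolites on the presenting molecule MR1 and release TNF, IL-17 and interferon gamma. Ac-6-FP occupies MR1 without activating these T cells, so the comparison asks what macrophages express when that signal is blocked. Inflammasomes are cytosolic sensor complexes that switch on caspase-1, which matures IL-1beta and IL-18, while caspase-11, the product of Casp4 in the mouse, senses cytosolic lipopolysaccharide and cleaves gasdermin D.

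In Ly6Chi MoMac exposed to Ac-6-FP, Casp4 was listed at a mean of 486 normalized counts against 953 with vehicle, and Casp1, Il18 and the platelet-activating factor receptor gene Ptafr were below every vehicle value in all 5 libraries. Tetraspanin Cd53, the membrane 4-domain genes Ms4a6c and Ms4a4c, and most MHC class II genes were also lower in their values, while genes of glycolysis, the cell cycle and the immediate early response were mostly higher, by less without vehicle mice 12, 13 and 14 for glycolysis and immediate early genes. Few of these differences passed a test corrected over all genes. With limma on log2(normalized count + 1), 13 of 17248 genes had an adjusted p under 0.05. Of these, 11 rose (0.0638% of the genes tested) and 2 fell (0.0116%). All 11 that rose were at 0 in 4 or 5 of the vehicle libraries. The 2 that fell, Casp4 and the long non-coding RNA gene 4930506C21Rik, were the only called genes among the 5733 that were above 0 in all 10 libraries (0.0349%). Without adjustment, 1158 genes had p under 0.05 and a higher value (6.71%) and 348 a lower one (2.02%), 8.73% of the genes tested in all. Among the 5733 genes these shares were close to each other, at 5.46% higher and 5.48% lower, whereas genes with a 0 in some library were mostly higher (7.34% against 0.295%).

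These calls depended on how the genes were chosen and tested. The filter admitted genes expressed in any of the 4 groups of the series, and 1409 of the 17248 genes were at 0 in all 10 Ly6Chi libraries. When genes had to reach the filter in a Ly6Chi group (14214 genes), limma called 0 genes, with 1467 at an unadjusted p under 0.05. On recovered whole reads, edgeR called 0 of 17248 (1541 at an unadjusted p under 0.05), whereas DESeq2 called 92 higher (0.742% of 12407) and 65 lower (0.524%). Of the DESeq2 calls above 0 in all 10 libraries, 39 were lower and 17 higher. Single libraries mattered as well, since limma called 122 genes higher and 11 lower without vehicle mouse 11, and 0 without vehicle mouse 12, 13 or 15.

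Libraries differed in how many genes they detected. Vehicle libraries of mice 11 to 15 held 14606, 9017, 9749, 9495 and 11097 genes above 0, and Ac-6-FP libraries of mice 16 to 20 held 13652, 13098, 11096, 13622 and 15587. Mice 12, 13 and 14 were lower than every Ac-6-FP library, and mouse 11 was higher than all but mouse 20. Vehicle libraries had a mean of 10793 ± 2267 genes (SD, n = 5) and Ac-6-FP libraries one of 13411 ± 1604 (SD, n = 5; two-sided exact permutation test, p = 0.0794, where the design allows 0.00794 at the smallest). At equal depth, with each library reduced to 10597576 reads, the difference was 2533 genes (exact p = 0.0714). With all reads, the difference without mouse 11 was 3572 genes (exact permutation p = 0.0317). Reads on genes ranged from 10597576 to 13646656 in vehicle and from 12549608 to 18682437 in Ac-6-FP libraries, and up to 3 reads are compatible with a 0 (counting error only). The results below therefore rest mainly on the 5733 genes above 0 in all 10 libraries, and most list medians are also given without mice 12, 13 and 14. Only vehicle mice 11 and 15 remain in that setting, and mouse 11 lay among the Ac-6-FP libraries in genes detected. A change that is smaller or turned there cannot be told apart from the weight of mouse 11. Of the named genes above 0 in all 10 libraries, 56 had a change above 0, of which 9 were below 0 and 35 were smaller by over 1.5 times without these 3 mice. Of the 60 with a change below 0, none turned and 13 were smaller by over 1.5 times, and these counts describe genes chosen partly by their values.

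A second property moved with the treatment. Of the 5733 genes, 3768 had a coding transcript of known GC content. Their median log2 change climbed from -0.09 in the lowest of 5 equal GC classes (up to 43.6%) through -0.02, 0.05 and 0.12 to 0.29 in the highest (from 54.5%). Genes whose groups did not overlap had a median GC content of 53.2% when higher (39 genes) and 45.1% when lower (42 genes), against 49.1% for all.

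**Figure D1:**
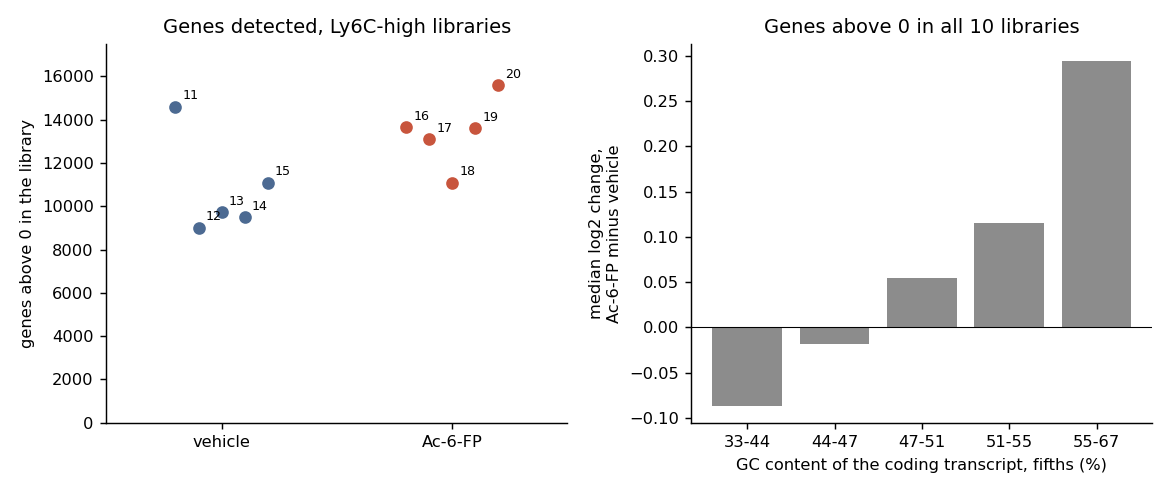
Left, number of genes above 0 in each Ly6Chi library (y axis, genes), with mouse numbers beside the points. Right, median log2 change (Ac-6-FP minus vehicle) of the genes above 0 in all 10 libraries in 5 classes of transcript GC content (x axis, %). Vehicle mice 12, 13 and 14 lie lowest, at 9017 to 9749 genes, and the median change climbs from -0.09 to 0.29 with GC content.

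The labels held up against the sorted marker. Ly6c2, which encodes a Ly6C antigen, ranged from 4930 to 10012 normalized counts in Ly6Chi libraries and from 284 to 1014 in the Ly6Clo libraries of the same mice, and was higher in the Ly6Chi library of 10 of 10 mice. Between treatments it was listed at 7607, 7218, 5908, 4930 and 9047 with vehicle and at 7589, 6649, 5641, 10012 and 9428 with Ac-6-FP, 2 groups that overlap over most of their range (log2 change 0.18, standard error 0.21). Of the macrophage genes, Adgre1 (F4/80), Cd68, Itgam (CD11b) and the joint entry of Lyz2 and Lyz1 were above 0 in all 10 libraries. Itgax (CD11c) was at 0 in all 10, and Ly6g was at 0 to 0.89 normalized counts in vehicle and 0.82 to 16.2 in Ac-6-FP libraries. Csf1r, the receptor of macrophage colony-stimulating factor, was listed at 3384 ± 2678 (SD, n = 5) with vehicle and 8307 ± 2177 (SD, n = 5) with Ac-6-FP, and vehicle mouse 11 (8062) lay inside the Ac-6-FP range.

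Among the 5733 genes, all 5 Ac-6-FP libraries were above all 5 vehicle libraries in 57 (0.994%) and below them in 60 (1.05%). The median log2 change was 0.06, and 56.0% of the genes were above 0. In the 11515 tested genes with a 0 in at least 1 library, the groups were separate in 110 genes that were higher (0.955%) and 5 that were lower (0.0434%), with a median change of 0.91 and 66.3% of the changes above 0. Values below 0 were thus as frequent as values above 0 among the separated genes only where every library had reads.

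**Figure D2:**
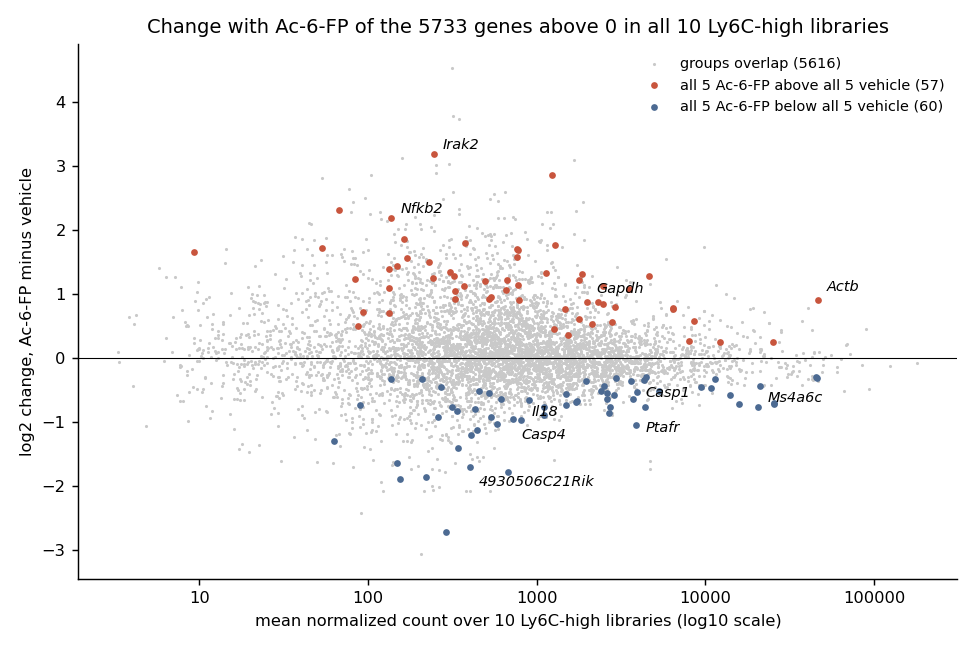
Log2 change (Ac-6-FP minus vehicle, y axis) against the mean normalized count over 10 Ly6Chi libraries (x axis, log10 scale) for the 5733 genes above 0 in all of them. Coloured points are the 57 genes with all Ac-6-FP values above, and the 60 with all below, the vehicle values, and the grey points lie around 0 with a median of 0.06.

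Casp4 (GSMG0039110, chr9:5308849-5336791 of mm10) was listed at 849, 780, 1115, 908 and 1113 normalized counts with vehicle and at 488, 437, 514, 524 and 466 with Ac-6-FP. The lowest vehicle value was well above the highest Ac-6-FP value, and the Ac-6-FP libraries lay within a narrow range. The means were 953 ± 154 (SD, n = 5) and 486 ± 35.3 (SD, n = 5), and Casp4 fell by 0.96 on the log2 scale (standard error 0.12, limma adjusted p = 0.0353). Its log2 change was negative under 27 of 27 alternatives, from -1.04 to -0.87. Since its groups did not overlap, leaving out libraries or changing the filter could not have turned that sign. The adjusted p was under 0.05 in 8 of the 27. It was 0.30 when genes were filtered in the Ly6Chi groups alone, 0.487 with edgeR and 7.07e-07 with DESeq2. Without mice 12, 13 and 14 the change was -1.0, and centred within GC classes it was -0.87.

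Casp1, whose gene ends 1560 bases before Casp4 begins (chr9:5298517-5307289), was listed at 4194, 3934, 6776, 4480 and 3940 with vehicle and at 3179, 3368, 3049, 3203 and 3034 with Ac-6-FP. All vehicle values were above all Ac-6-FP values, with mouse 13 highest. The log2 change was -0.53 (standard error 0.15, limma adjusted p = 0.381), so the corrected test was not passed. Il18 (chr9:50554700-50581841), the cytokine precursor that caspase-1 matures, was listed at 685, 1140, 949, 1425 and 1165 with vehicle and at 455, 524, 560, 593 and 551 with Ac-6-FP. Again the groups did not overlap, and the vehicle spread (SD 275) exceeded that with Ac-6-FP (SD 51.9). Its log2 change was -0.96 (standard error 0.19, limma adjusted p = 0.237), and -0.74 without mice 12, 13 and 14. The entries of Bco2 and Tex12 overlap that of Il18, and it is not stated whether reads were counted by strand, so reads in the shared stretches cannot be assigned. Casp1 and Casp4 are related in sequence, and reads shared between them cannot be told apart.

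The start regions of these 3 neighbouring or functionally linked genes are shown because their values were lower together. Each runs from 250 bases before to 50 bases after the RefSeq transcription start (GRCm38.p6), 5′ to 3′ on the plus strand, with motif matches in capitals. Casp4 spans chr9:5308599-5308898 (1 of 2 RefSeq starts), Casp1 chr9:5298267-5298566 and Il18 chr9:50554450-50554749.
Casp4: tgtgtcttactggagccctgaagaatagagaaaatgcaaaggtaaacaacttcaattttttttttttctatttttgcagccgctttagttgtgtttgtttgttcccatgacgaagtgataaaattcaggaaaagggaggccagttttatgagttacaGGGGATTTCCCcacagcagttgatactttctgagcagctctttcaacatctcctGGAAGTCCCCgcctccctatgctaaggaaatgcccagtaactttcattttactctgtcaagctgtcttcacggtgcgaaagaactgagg
Casp1: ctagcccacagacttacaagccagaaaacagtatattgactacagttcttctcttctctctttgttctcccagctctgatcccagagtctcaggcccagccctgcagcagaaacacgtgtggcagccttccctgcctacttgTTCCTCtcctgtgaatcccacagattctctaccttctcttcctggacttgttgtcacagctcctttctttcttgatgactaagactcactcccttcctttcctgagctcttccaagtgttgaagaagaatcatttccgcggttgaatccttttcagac
Il18: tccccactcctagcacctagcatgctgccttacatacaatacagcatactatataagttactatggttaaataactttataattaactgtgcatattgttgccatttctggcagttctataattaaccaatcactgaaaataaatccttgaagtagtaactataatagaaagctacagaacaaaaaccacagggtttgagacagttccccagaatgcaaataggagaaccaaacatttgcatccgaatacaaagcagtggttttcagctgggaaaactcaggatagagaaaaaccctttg
Motifs were searched on both strands. These were the interferon-stimulated response element (ISRE, present in 3.44% of 32851 RefSeq windows of this length), the gamma-activated site TTCNNNGAA (8.3%), the AP-1 site TGANTCA (7.81%), the kappaB site (8.46%), the PU.1 core GAGGAA (28.3%) and the C/EBP core TTGCNNAA (10.8%). In Casp4 the capitals mark kappaB matches from -93 to -83 (overlapping matches) and from -39 to -30, in Casp1 they mark a PU.1 core from -108 to -103 on the minus strand, and in the Il18 window none of the 6 motifs was found. A match describes the letters and is not evidence that a factor binds there.

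The inflammasome and pyroptosis list (20 genes) had 18 members tested and 7 above 0 in all 10 libraries. Of these 7, 5 were below 0 with a median log2 change of -0.36, against 0.06 for all 5733 genes. The groups were separate in Casp1, Casp4 and Il18, where 1.05% of the 5733 genes were separate and lower, and Casp4 was the only member called (0.0349% of the 5733). Without mice 12, 13 and 14 the median was -0.36, with 4 of 7 below 0, but single libraries moved it, to -0.58 without mouse 12, -0.55 without mouse 17, -0.23 without mouse 15 and -0.22 without mouse 16. Over all 18 members tested it was 0.54, of the opposite sign, where 11 members had a 0 in some library. The 4 caspases above 0 in all 10 libraries had a median of -0.55, and Casp6, an executioner caspase, was listed at 1203 ± 304 with vehicle and 800 ± 184 (SD, n = 5 each) with Ac-6-FP. Over all 9 caspases tested the median was 1.51, a value set by members at 0 in vehicle libraries. Of the cytokine list only 4 of 15 tested members were above 0 in all 10 libraries. Beside Il18 they included oncostatin M (Osm), a gp130 cytokine, with 1570 ± 438 and 2754 ± 842 (SD, n = 5 each, log2 change 0.80). The list's median was -0.53 (0.80, of the opposite sign, over all 15 tested), 0.12 without mice 12, 13 and 14, and -0.92 over 3 members centred within GC classes. Without the 3 mice the change of Osm was 0.40.

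**Figure D3:**
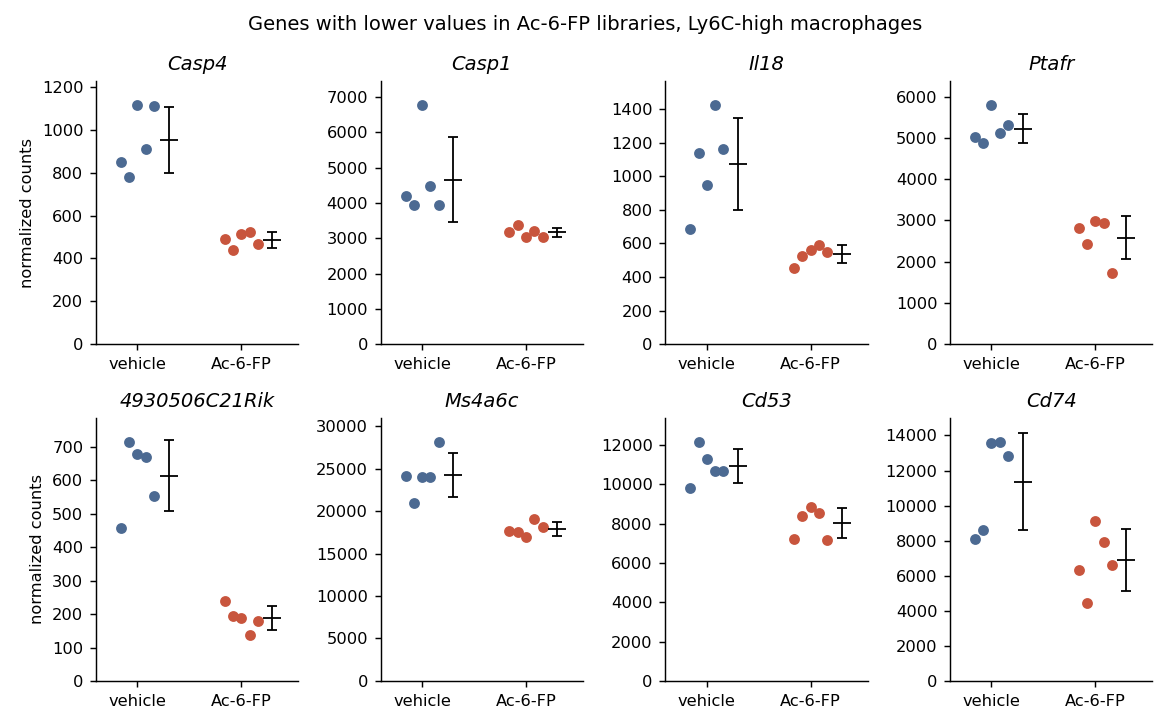
Normalized counts (y axis, from 0) of 8 genes in the 5 vehicle and 5 Ac-6-FP Ly6Chi libraries, 1 point per mouse, with the mean and SD beside the points. In all but Cd74 the Ac-6-FP values lie below every vehicle value, and in Cd74 vehicle mice 11 and 12 (8086 and 8631) lie inside the Ac-6-FP range.

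4930506C21Rik (GSMG0017090, chr17:8293366-8311118), a non-coding RNA gene, was listed at 457, 716, 679, 669 and 553 with vehicle and at 240, 194, 187, 138 and 180 with Ac-6-FP. The groups were far apart. It fell by 1.71 on the log2 scale (standard error 0.18, limma adjusted p = 0.0165), from 615 ± 107 to 188 ± 36.2 (SD, n = 5 each), and by 1.44 without mice 12, 13 and 14 (adjusted p = 0.258). Its change was negative under 26 of 26 alternatives, a sign that leaving out libraries or changing the filter could not have turned. The entry overlaps Mpc1, a subunit of the mitochondrial pyruvate carrier, which was also separate between the groups (753 ± 119 and 483 ± 67.5, SD, n = 5 each, log2 change -0.64, limma adjusted p = 0.366), and reads in the shared stretch cannot be assigned to either.

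Ptafr, the receptor of platelet-activating factor, had the next smallest p among genes above 0 in all 10 libraries. Its values were 5031, 4870, 5799, 5123 and 5307 with vehicle and 2820, 2419, 2979, 2934 and 1730 with Ac-6-FP. No vehicle library was under 4870 and no Ac-6-FP library over 2979. The log2 change was -1.04 (standard error 0.15), and the limma adjusted p of 0.0698 missed the threshold. Pla2g7, which encodes the enzyme that degrades platelet-activating factor, was also separate between the groups, with 5564 ± 1360 and 3263 ± 647 (SD, n = 5 each, log2 change -0.76, limma adjusted p = 0.377).

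The other genes filling the rule of 10 in the lower direction were Fkbpl, Slc39a1, Ms4a6c, Pdp2, Cd53, Il18 and Prr13, and their limma adjusted p lay between 0.179 and 0.24. Ms4a6c was listed at 24127, 21017, 24001, 24003 and 28197 with vehicle and at 17660, 17544, 16956, 19109 and 18163 with Ac-6-FP. This gene of the MS4A membrane family was among the most abundant of the separated genes, and its log2 change was small (-0.44, standard error 0.08). Its relative Ms4a4c had 19737 ± 4111 and 11945 ± 1711 (SD, n = 5 each, log2 change -0.71, and -0.42 without mice 12, 13 and 14). Cd53, a leukocyte tetraspanin, was listed at 9827, 12169, 11264, 10662 and 10673 with vehicle and at 7235, 8374, 8836, 8531 and 7144 with Ac-6-FP (log2 change -0.45). Slc39a1, a zinc importer, had 571 ± 137 and 247 ± 60.1, and Pdp2, a phosphatase that activates pyruvate dehydrogenase, had 1063 ± 480 and 293 ± 89.0 (SD, n = 5 each). Prr13 (-0.57) and Fkbpl (-1.64) completed the set. DESeq2 on whole reads gave all 10 of these genes, Casp4, 4930506C21Rik and Ptafr included, an adjusted p under 0.05, where 0.524% of 12407 genes were called lower. edgeR on the same reads called 0 of 17248 genes lower. The 10 were picked by their p in these same libraries, so the DESeq2 count is a description and no further support.

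In the higher direction no gene above 0 in all 10 libraries was called. The 10 genes with the smallest p among separated genes were Anapc5, Mrpl37, Ccnd3, Prelid1, Isyna1, Pepd, Rce1, Gapdh, Acly and Capzb, with limma adjusted p from 0.338 to 0.366. DESeq2 gave 9 of the 10 an adjusted p under 0.05, where 0.742% of 12407 genes were called higher, and edgeR called 0 of 17248 higher. These 10 too were picked in the same libraries, so the count is no further support. Ccnd3, the G1 cyclin D3, was listed at 441, 271, 197, 273 and 311 with vehicle and at 498, 793, 488, 673 and 1011 with Ac-6-FP. The groups did not overlap, but vehicle mouse 11 was close to the lowest Ac-6-FP library (log2 change 1.21, standard error 0.27). Gapdh, the glycolytic dehydrogenase, was listed at 1882, 890, 1248, 1253 and 1949 with vehicle and at 2803, 2218, 2154, 2688 and 2862 with Ac-6-FP. Its log2 change of 0.87 became 0.40 without mice 12, 13 and 14 and 0.47 when centred within GC classes. Acly, which makes cytosolic acetyl-CoA from citrate, was listed at 1823, 557, 739, 1076 and 1295 with vehicle and at 1873, 1977, 3132, 2295 and 3711 with Ac-6-FP, so that mouse 11 nearly reached the Ac-6-FP range. Anapc5, a subunit of the anaphase-promoting complex, had 1606 ± 295 and 2984 ± 837 (SD, n = 5 each, log2 change 0.87). Of the 10, Capzb, a subunit of the actin capping protein, had the smallest change (0.27) and the highest level (7258 ± 601 and 8746 ± 446, SD, n = 5 each). Actb, chosen after its values were seen, was separate too, at 33282 ± 12662 and 60070 ± 13662 (SD, n = 5 each, log2 change 0.91, and 0.33 without mice 12, 13 and 14). In that setting Acly was at 0.71, Pepd at 0.45 and Capzb at 0.15. Each of the 10 had a smaller change when centred within GC classes, from Acly at 1.12 to Capzb at 0.08. Prelid1 went from 0.53 to 0.13 there and Mrpl37 from 0.77 to 0.37.

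**Figure D4:**
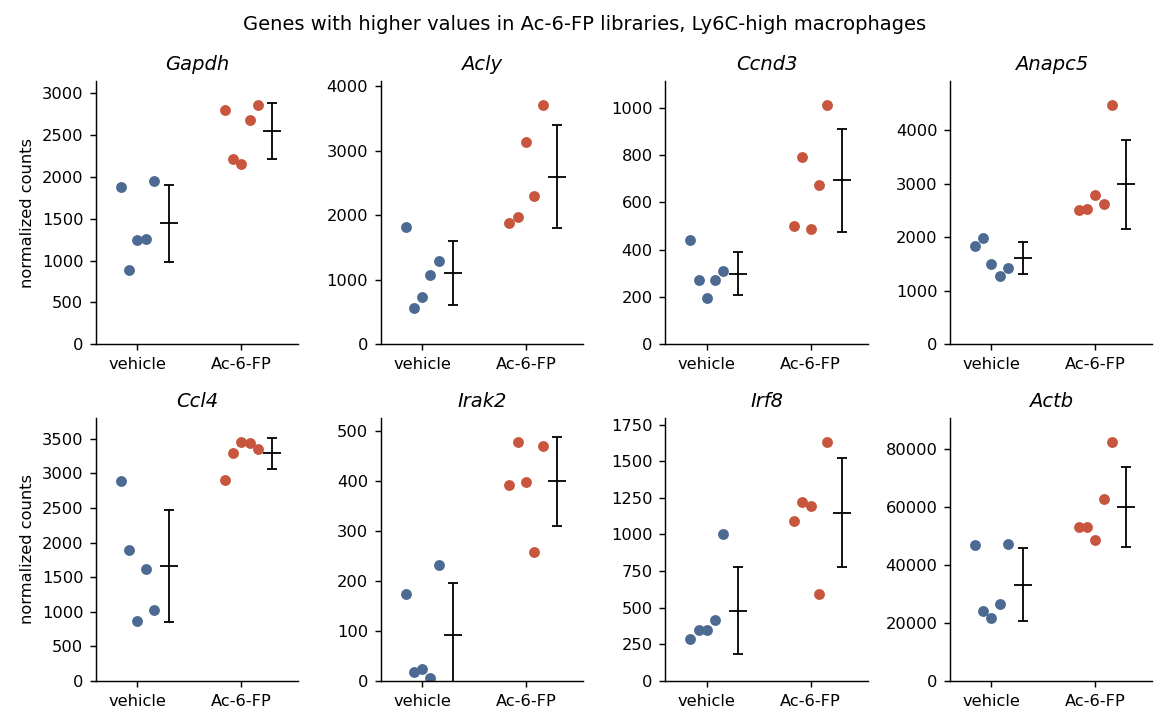
Normalized counts (y axis, from 0) of 8 genes in the 5 vehicle and 5 Ac-6-FP Ly6Chi libraries, 1 point per mouse, with the mean and SD beside the points. Vehicle mouse 11 is the highest or second highest vehicle library in 7 of the 8 genes, all but Irf8, and in Irf8 vehicle mouse 15 (1003) lies inside the Ac-6-FP range.

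The 11 genes that rose were absent or nearly absent from vehicle libraries. In 7 of them all 5 vehicle libraries were at 0, in the other 4 a single vehicle library held a few reads, and no Ac-6-FP library was at 0. Within the Ly6Chi comparison these genes reached the filter only through the Ac-6-FP group, in which they are high, so their calls are given as a description and support no change. Ints5, a subunit of the Integrator complex that processes small nuclear RNAs, was at 0 in 5 vehicle libraries and at 99.9 to 272 (median 106) with Ac-6-FP, at least 53.1-fold higher when each 0 is set to 3 reads per library. The unnamed entry GSMG0020071 overlaps its end and held 80.6 to 129 normalized counts with Ac-6-FP, so that these 2 calls may count the same reads. Tbc1d5, a Rab GTPase-activating protein of the retromer pathway, held 45.6, 67.9, 119, 37.8 and 90.9 (at least 25.1-fold). Dnph1, which hydrolyses hydroxymethyl-dUMP, held 207, 115, 52.9, 73.9 and 182 (at least 43.9-fold), and Zfp839, a zinc finger gene, 31.2, 68.8, 77.4, 88.5 and 30.6 (at least 20.6-fold). Cenpf, a kinetochore protein of dividing cells, held 35.0, 58.1, 70.8, 21.5 and 14.2 (at least 13.9-fold). Pold1, the catalytic subunit of DNA polymerase delta, was at 4.83 in vehicle mouse 14, at 0 in the other 4 and at 170 ± 51.7 (SD, n = 5) with Ac-6-FP. The others were Brat1, Rccd1, GSMG0006602 and GSMG0040128. Pold1 and these 4 genes fell outside the naming rule and were chosen after their values were seen. Rccd1 overlaps Prc1 (13.2 ± 28.3 and 316 ± 119, SD, n = 5 each), and GSMG0040128 lies inside Dhx30, which was at 54.9 and 305 in vehicle mice 11 and 12 and at 0 in 3. Direction was the same under every alternative that could be fitted for these 11 genes, which their vehicle values of 0 largely fixed beforehand. None of the 11 was called once the genes detected per library entered as a covariate.

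Of 30 lists of macrophage functions, with 591 different genes tested, the test was passed by 1 member that fell (Casp4) and 1 that rose (Cenpf), beside 0.0116% and 0.0638% of all genes. The lists are therefore described by their members above 0 in all 10 libraries, beside the 0.06 median and the 56.0% above 0 of all 5733 genes. Medians close to 0 changed sign in 2 to 6 of 12 other settings for patrolling monocyte, chemokine, Toll-like receptor, interferon, redox, lysosomal, cholesterol and p53 genes, so no direction is drawn for these lists. Over all members tested, those with a 0 included, the median was of the opposite sign for patrolling monocyte (0.11), interferon gamma (0.07), cholesterol (1.13), prostaglandin and leukotriene (0.74) and p53 genes (0.08). Over these 12 settings, which include each library left out, the median of restorative genes ranged from 0.22 to 0.49 and of cytokines from -0.67 to -0.23. That of MAIT cytokine receptors ranged from 0.30 to 0.89, of NF-kappaB genes from 0.0015 to 0.50 and of homing receptors from 0.11 to 0.50. Scavenger receptors ranged from -0.54 to -0.18 and mitotic genes from 0.39 to 0.95. The fit with the genes detected per library as a covariate is not among the 12. There the medians were 0.13 for restorative genes, 0.29 for MAIT cytokine receptors, 0.06 for NF-kappaB genes and 0.66 for mitotic genes. In that fit cytokines (0.19), homing receptors (-0.09) and scavenger receptors (0.02) turned sign.

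**Figure D5:**
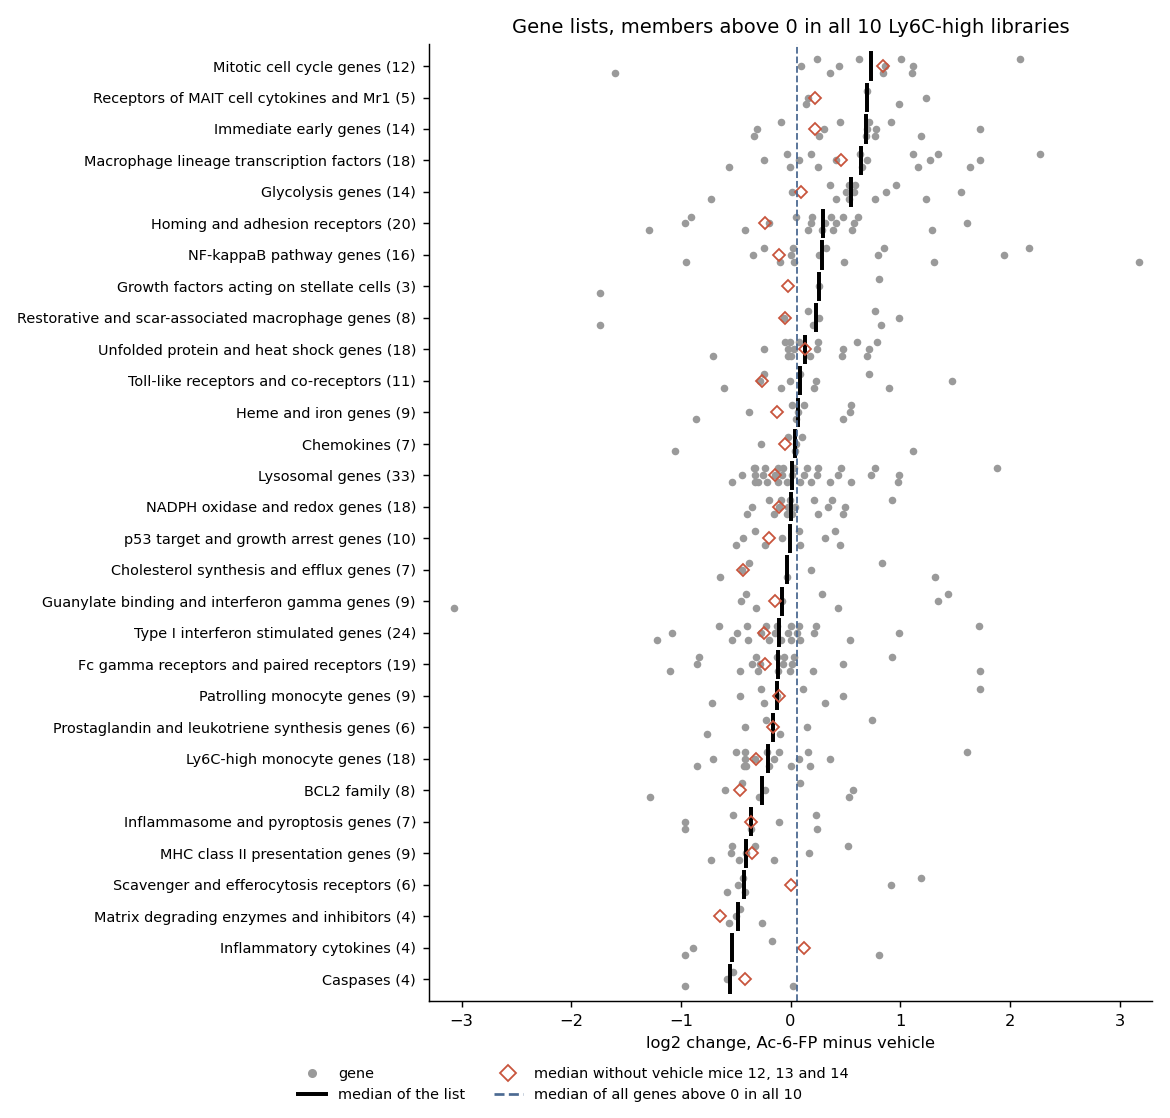
Log2 change (Ac-6-FP minus vehicle, x axis) of the members above 0 in all 10 libraries of 30 gene lists, ordered by median, with the number of such members in brackets. Grey points are genes, black bars medians, open diamonds medians without vehicle mice 12, 13 and 14, and the dashed line is the median of all 5733 genes. Without these mice the median of all 5733 genes is -0.01, the medians of inflammatory cytokines (0.12) and scavenger receptors (0.001) lie above that, and several at the top move toward it.

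Genes that mark Ly6Chi monocytes had changes below 0 in 12 of 18 (median log2 change -0.20), and in 18 of 18 without mice 12, 13 and 14 (median -0.32). Ccr2, the chemokine receptor that draws monocytes out of the marrow, was listed at 20490, 15865, 22961, 17179 and 20472 with vehicle and at 9986, 16291, 16882, 14865 and 15359 with Ac-6-FP. Of the Ac-6-FP libraries, 2 exceeded the lowest vehicle library, that of mouse 12 (log2 change -0.41, limma adjusted p = 0.543). Clec4e, the C-type lectin Mincle, had 3614 ± 1068 and 1956 ± 451 (SD, n = 5 each, -0.86), and the joint entry of Sirpb1c had a change of -0.41. Patrolling monocyte genes had a median of -0.12 over 9, with Nr4a1, the factor that non-classical monocytes need, at 5656 ± 5556 and 14104 ± 2644 (SD, n = 5 each), Cd300ld at -0.72 and the joint entry of Apoc2 at -0.46. Vehicle mouse 11 held 15444 counts of Nr4a1 and the other vehicle mice at most 4052. Without mice 12, 13 and 14 the list median was -0.10, Nr4a1 was at 0.82 (1.73 with all mice) and Cd300ld at -0.28. Homing and adhesion receptors were above 0 in 15 of 20 (median 0.30), but had a median of -0.23 without mice 12, 13 and 14. Among them were Selplg, the selectin ligand PSGL-1, at 7362 ± 2151 and 10948 ± 796, and Fpr1, a receptor of bacterial formyl peptides, at 1795 ± 781 and 907 ± 335 (SD, n = 5 each).

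Restorative and scar-associated macrophage genes were above 0 in 6 of 8 (median 0.23, -0.05 without mice 12, 13 and 14, and 0.14 centred within GC classes). Ctsd, the lysosomal protease cathepsin D, was separate between the groups at 6589, 5856, 2156, 4126 and 6003 with vehicle and 7921, 6944, 6841, 7153 and 11010 with Ac-6-FP. Ctsl, another cathepsin, had a change of 0.99, and Lgals3, galectin-3, one of 0.26. Without the 3 mice Ctsd was at 0.32 (0.77 with all mice), Ctsl at 0.54 and Lgals3 at -0.02 (-0.15 centred within GC classes). Lineage transcription factors were above 0 in 14 of 18 (median 0.64, 0.46 without mice 12, 13 and 14, and 0.32 centred within GC classes). Irf8, which directs monocyte development, was listed at 289, 347, 349, 418 and 1003 with vehicle and at 1092, 1220, 1198, 594 and 1634 with Ac-6-FP. Irf5, a factor of inflammatory polarization, had 1296 ± 513 and 2773 ± 933, and Id1, an inhibitor of helix-loop-helix factors, 641 ± 99.7 and 1000 ± 189 (SD, n = 5 each). These 3 genes did not pass the test (limma adjusted p 0.366 to 0.397), and their groups overlapped.

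MHC class II presentation genes were below 0 in 7 of 9 (median -0.41), in 8 of 9 without mice 12, 13 and 14 (median -0.35), and in 8 of 8 with a known GC content when centred on it (median -0.66). Cd74, the invariant chain, was listed at 8086, 8631, 13591, 13647 and 12850 with vehicle and at 6300, 4446, 9107, 7928 and 6604 with Ac-6-FP. The lowest vehicle values, of mice 11 and 12, lay inside the Ac-6-FP range (log2 change -0.73, limma adjusted p = 0.472). Ctss, the protease that trims the invariant chain, had 45035 ± 3339 and 36140 ± 4359, and H2-DMb1, a chain of the peptide-loading molecule, 781 ± 258 and 520.3 ± 89.4 (SD, n = 5 each). Fc gamma and paired receptors were below 0 in 13 of 19 (median -0.11), and in 15 of 19 without mice 12, 13 and 14 (median -0.23, and -0.18 centred within GC classes). Fcer1g, the signalling chain shared by activating Fc receptors and C-type lectins, was listed at 49502, 49293, 46470, 52710 and 56047 with vehicle and at 44137, 39037, 44190, 45946 and 32480 with Ac-6-FP. The groups did not overlap, although the change was small (-0.31). Clec4n, the lectin dectin-2, had 530 ± 211 and 253 ± 129 (SD, n = 5 each, -1.10, and -0.60 without these mice).

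Toll-like receptors and their partners had a median of 0.08 over 11, which turned to -0.26 without mice 12, 13 and 14, with 2 of 11 above 0. Ly96, the MD-2 partner of TLR4, was at -0.61, Tlr8 at -0.28 and Unc93b1, which carries endosomal receptors, at 0.89 (0.13 without these mice). Scavenger and efferocytosis receptors were below 0 in 4 of 6 (median -0.42, 0.94 over all 23 tested, and 0.001 without mice 12, 13 and 14). They included Scarb1, the high-density lipoprotein receptor, at 815, 480, 462, 438 and 467 with vehicle and 1499, 1456, 662, 908 and 1731 with Ac-6-FP (log2 change 1.19, groups overlapping at vehicle mouse 11), Msr1 at -0.42 and Elmo1 at 0.92. Elmo1 was at 54.6 in vehicle mouse 12, and its change was 0.44 without that mouse and -0.02 without mice 12, 13 and 14.

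The 5 receptors of MAIT cell cytokines above 0 in all 10 libraries were all above 0 in change (median 0.70, and 0.22 without mice 12, 13 and 14). Tnfrsf1a, a TNF receptor, had 714 ± 462 and 1234 ± 332, Ifngr2, a chain of the interferon gamma receptor, 189 ± 114 and 338 ± 71.8, and Il10rb 335 ± 150 and 502 ± 172 (SD, n = 5 each), and none was separate. Without the 3 mice their changes of 0.99, 1.24 and 0.70 were 0.34, 0.22 and 0.11. NF-kappaB pathway genes were above 0 in 12 of 16 (median 0.29, and -0.10 without mice 12, 13 and 14). Irak2, a kinase below the Toll-like receptors, was listed at 174, 17.1, 24.7, 6.77 and 231 with vehicle and at 392, 478, 396, 257 and 469 with Ac-6-FP. Nfkb2, the p100 precursor, was listed at 130, 48.2, 1.76, 75.4 and 118 with vehicle and at 234, 215, 147, 176 and 229 with Ac-6-FP. Both were separate between the groups and rested on low vehicle values (log2 changes 3.18 and 2.18, standard errors 0.92 and 0.99, and changes of 0.95 and 0.67 without mice 12, 13 and 14). Nfkbia, the inhibitor that NF-kappaB induces, was at -0.24.

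Chemokines had a median of 0.04 over 7 (-0.05 without mice 12, 13 and 14). Ccl4, an inflammatory chemokine of macrophages, was listed at 2897, 1894, 869, 1624 and 1026 with vehicle and at 2903, 3300, 3459, 3438 and 3346 with Ac-6-FP, so that mouse 11 kept the groups apart only narrowly (log2 change 1.12). Ccl6 was at -0.27 (-0.14 without mouse 20) and the platelet chemokine Ppbp at -1.05 (-0.52 without these mice). Type I interferon stimulated genes were below 0 in 14 of 24 (median -0.10) and in 21 of 24 without mice 12, 13 and 14 (median -0.25, and -0.18 centred within GC classes), with Isg15 at -0.65, Isg20 at -1.08 and Dhx58 at 1.71. Dhx58 rested on vehicle mouse 12, at 1.07 where the other vehicle mice held 327 to 484, and was at 0.19 without it. Interferon gamma genes had a median of -0.08 over 9 (-0.14 without mice 12, 13 and 14), with the joint entry of Tgtp1 at 374 ± 300 and 36.0 ± 24.1 (SD, n = 5 each) and Igtp at -0.45 (-0.14 without these mice). Immediate early genes were above 0 in 11 of 14 (median 0.69, 0.22 without mice 12, 13 and 14, and 0.44 centred within GC classes), among them Fos at 31798 ± 17033 and 49133 ± 6146 (SD, n = 5 each), Atf3 at 0.72 and Btg2 at 0.45. Without these mice Fos was at -0.01 (0.78 with all mice), Atf3 at 0.23 and Btg2 at 0.01. Their induction during tissue digestion is well known, and its part here was not tested.

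Glycolysis genes were above 0 in 13 of 14 (median 0.56), in 13 of 14 with the genes detected per library as a covariate (median 0.20), in 12 of 14 when centred within GC classes (median 0.35), and in 10 of 14 without mice 12, 13 and 14 (median 0.10). Beside Gapdh, Aldoa (aldolase A) was listed at 11197 ± 3114 and 15535 ± 1936 and Hk3 (hexokinase 3) at 602 ± 369 and 1217 ± 316 (SD, n = 5 each). Their changes of 0.51 and 1.23 were 0.11 and 0.38 without the 3 mice. Cholesterol genes had a median of -0.04 over 7 and of -0.43 without mice 12, 13 and 14 (-0.22 centred within GC classes), with Msmo1 at -0.64, Idi1 at -0.38 and Nr1h2 (liver X receptor beta) at 1.32, or 0.21 without these mice. Redox genes were evenly divided (9 of 18 above 0, median 0.004, and 6 of 18 without the 3 mice, median -0.10). Cybb, the catalytic subunit of the phagocyte NADPH oxidase, had 17420 ± 3027 and 13203 ± 1897, Prdx1 9620 ± 534 and 8427 ± 585, and Gpx1 63887 ± 5403 and 73999 ± 5381 (SD, n = 5 each), with the change of Gpx1 at 0.21 and at -0.19 centred within GC classes. Lysosomal genes had a median of 0.01 over 33, or -0.14 without the 3 mice (Ppt1 at -0.44), and heme and iron genes of 0.07 over 9, or -0.12 without them (Hfe at -0.86 and -0.47 without mouse 18, Slc11a1 at 0.54 and -0.12 without them, Blvrb at 0.55 and 0.23 without them). Prostaglandin and leukotriene genes had a median of -0.16 over 6, from -0.27 to -0.06 over 12 other settings. Ptges3 was at -0.42, or -0.14 without the 3 mice, and Alox5ap at -0.22, or -0.41 centred within GC classes.

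Mitotic genes were above 0 in 11 of 12 (median 0.73, 0.85 without mice 12, 13 and 14, and 0.49 centred within GC classes). Ccnb2, cyclin B2, was listed at 514, 381, 876, 432 and 256 with vehicle and at 617, 1183, 1090, 741 and 1555 with Ac-6-FP. Vehicle mouse 13 lay inside the Ac-6-FP range (log2 change 1.12, limma adjusted p = 0.474). Pcna was at 0.45, and Bub1, a spindle checkpoint kinase, at -1.60 (-0.62 without these mice). BCL2 family genes had a median of -0.26 over 8 (0.53 over all 15 tested, -0.46 without mice 12, 13 and 14, and -0.06 without mouse 16), with the survival genes Mcl1 at -0.44 and Bcl2a1d at -1.28 (-0.65 without mouse 16), a gene with near-identical copies, and the pro-apoptotic Bad at 0.57 (-0.02 without these mice). Genes of p53 and growth arrest had a median of -0.002 over 10 (-0.20 without these mice), with Cdkn2d at 0.31 (-0.09 centred within GC classes) and Fas, the death receptor, at -0.49. Unfolded protein and heat shock genes had a median of 0.13 over 18. Canx, the chaperone calnexin, was separate at 24890, 34761, 33203, 42321 and 24990 with vehicle and 16014, 22390, 20036, 19995 and 18129 with Ac-6-FP (log2 change -0.71), and Dnajb1 was at 0.79. Without the 3 mice these changes were -0.38 and 0.39, and the list median was 0.14.

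All 4 matrix genes above 0 in every library had changes below 0 (median -0.48, and -0.65 without mice 12, 13 and 14), whereas the median over all 19 tested was 0. Mmp8, neutrophil collagenase, had 8632 ± 1866 and 6080 ± 980, Plaur, the urokinase receptor, 1423 ± 526 and 988 ± 90.4, and Adam10 672 ± 197 and 632 ± 321 (SD, n = 5 each). Of the stellate cell growth factors 3 were above 0 in all 10 libraries, Osm, Lgals3 and Spp1 (osteopontin). Spp1 was listed at 602, 1980, 2736, 480 and 37469 with vehicle and at 322, 612, 1006, 674 and 1064 with Ac-6-FP, where vehicle mouse 15 stood far above the others. Its log2 change was -1.74, and -0.72 without mouse 15. The median of the 3 was 0.26, and -0.02 without mice 12, 13 and 14.

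Markers of other cells were measured beside these lists, and their part in the differences was not tested. Summed over 12 T and NK cell markers the level was 0 to 689 normalized counts in vehicle and 155 to 1087 in Ac-6-FP libraries, and over 8 Kupffer cell markers 208 to 502 and 249 to 569. No member of either list was above 0 in all 10 libraries. Neutrophil markers summed to 13235 to 16488 with vehicle and 9536 to 13531 with Ac-6-FP, of which Mmp8 and S100a8 (4326 ± 1149 and 3639 ± 1079, SD, n = 5 each) made up most. The list median of -0.26, over 5 members above 0 in all 10 libraries, was 0.03 without mouse 13. Over all 12 tested it was 0.50, of the opposite sign. Csf3r was at 0.56 (-0.28 without mice 12, 13 and 14). Granulocyte progenitor genes summed to 1837 to 7187 and 3856 to 14544, with Elane at 1.04 and Prtn3 at 0.64 (list median 0.84, and 0.44 centred within GC classes). Hepatocyte markers summed to 4017 to 11682 and 5021 to 9158. Apoa1, an apolipoprotein of hepatocytes, was separate at 110, 103, 12.3, 133 and 155 with vehicle and 278, 171, 295, 226 and 226 with Ac-6-FP, whereas Trf (-0.05) and the joint entry of Serpina1a (-1.04, -0.64 without mouse 12 and -0.44 without mouse 20) were not. B cell markers summed to 80.2 to 743 and 172 to 428, with Cd79b at 0.25 (0.72 without mouse 12 and -0.06 without mouse 14) and Ms4a1 at 0 in all 10. Dendritic cell markers summed to 953 to 2215 and 1239 to 2307, most of it Bst2, which these macrophages express. Endothelial markers summed to 122 to 677 and 68.8 to 299, with Pecam1 at -1.29 (-0.38 without mice 12, 13 and 14) and Kdr and Stab2 at 0 in all 10. Stellate markers summed to 0 to 968 and 183 to 339 over 3 tested members. Erythroid and platelet genes summed to 996 to 2193 with vehicle (median 1422) and 712 to 18051 with Ac-6-FP (median 869), and the highest sum, of mouse 19, held Hba-a1 (6822) and Hba-a2 (4124) among others. Bulk libraries cannot tell fewer cells of a type from less RNA per cell.

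Single libraries moved the log2 change of 37 of the 116 named genes above 0 in all 10 libraries by over 1.5 times, and turned its sign in 5 (Adam10, Adgre1, Bst2, Cd79b and Trf). Among the lower values, Msmo1 was at -0.43 without mouse 20, Plaur at -0.27 without mouse 11, Ppbp at -0.65 without mouse 17, Ppt1 at -0.29 without mouse 15 and Tlr8 at -0.18 without mouse 16. Among the higher ones, Il10rb was at 0.30 without mouse 14, Ifngr2 at 0.58 without mouse 12, Nfkb2 at 1.18 and Apoa1 at 0.92 without mouse 13, and Hba-a1 at 0.44 without mouse 19. Casp4, Casp1, Il18, Ptafr and the other genes that filled the rule of 10 in either direction were not among those moved.

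Ly6Clo libraries of the same livers allowed the change of each gene to be set against that in the other subset. In a test of the within-mouse difference, 0 of 17248 genes had a limma adjusted p under 0.05 (0%), and 840 had an unadjusted p under 0.05 (4.87%). No change described here was thus shown to be particular to Ly6Chi MoMac. The Ly6Clo vehicle library of mouse 13 held 5343 genes, the fewest of the 20, and without mouse 13 the test called 0 genes as well (886 unadjusted). Casp4 was at -0.96 in Ly6Chi and 1.13 in Ly6Clo, a difference of -2.09 with a standard error of 1.64, and Il18 was at -0.96 and 2.48 (difference -3.44, standard error 1.77). Their Ly6Clo values spread widely. With all 20 libraries in 1 limma fit, the unadjusted p of the Ly6Chi change went from 2.46e-05 to 0.431 for Casp4. For Il18 it went from 0.000591 to 0.46. No opposite response of the subsets is therefore drawn for these 2 genes. Several genes had close values in both subsets with a small error of the difference. These included Ms4a6c (-0.44 and -0.49, difference 0.05, standard error 0.21), Ms4a4c (-0.71 and -0.81, standard error 0.22), Cd53 (-0.45 and -0.36, standard error 0.15), Canx (-0.71 and -0.52, standard error 0.18), Casp1 (-0.53 and -0.76, standard error 0.28) and Gapdh (0.87 and 1.00, standard error 0.34). Ptafr was at -1.04 and -0.21 (difference -0.83, standard error 0.43, adjusted p = 0.83).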

How the data were processed

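RNA-seq libraries were prepared from macrophages of the Ly6Chi and Ly6Clo gates of 10 mice, 1 library per gate and mouse. According to the methods and the submitters' processing notes, the authors aligned 75-base reads to mm10 with STAR 2.4.0 and counted them on constitutive regions of FAST DB genes. The deposited values are a normalized signal, read counts divided by a DESeq size factor, and whether counting used strand is not given in the sources used here. Of the values above 0, 99.97% were whole multiples of the value of 1 read (tolerance 0.006 normalized counts), which gave the reads on genes and the floor of 3 reads for a 0. Because the values were normalized, limma 3.58.1 was fitted to log2(value + 1) of the 10 Ly6Chi libraries, unpaired, with Benjamini-Hochberg adjustment, over 17248 of 59311 genes with a mean of at least 10 in any of the 4 groups. edgeR 4.0.16 and DESeq2 1.42.0 were run on the recovered reads as alternatives. The mice are the replicates. For the comparison with Ly6Clo, libraries of the same liver were paired, and their residuals had a median correlation of 0.06 (0.02 to 0.38) against -0.01 between different mice. GC content came from the longest coding transcript of each gene in GENCODE vM21, and start regions from RefSeq. Fits were tested on simulated data.

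Named genes were those called and above 0 in all 10 libraries, then, up to 10 per direction, genes with a mean of at least 100 and separate groups by smallest p, the markers Ly6c2, Casp4 and Il18, up to 3 members of each list by smallest p, and up to 5 called genes with a 0. Mpc1, Prc1, Dhx30 and Actb were chosen after their values were seen. The genes, lists and tests were chosen with earlier results of these data known.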

Additional observations from a re-analysis of the deposited data

Results flagged for a closer look

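In each group of 5 libraries, the highest or lowest value of a gene named above was set apart when its gap to the nearest library exceeded 0.71 of the group's range. Chance gives this in about 1 in 20 groups, and 36 groups met it here, 14.3% of those checked.

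Vehicle mouse 11 was the highest vehicle library for Nr4a1 (15444, others up to 4052), Csf1r (8062), Irf5 (2185), Atf3 (3560), Scarb1 (815), Msr1 (3898) and Prc1 (63.7), and for the sparse entries Brat1 (1.77), Rccd1 (1.77), GSMG0040128 (0.89) and Ly6g (0.89), and the lowest for Pecam1 (34.5). It also detected the most genes of the vehicle libraries.

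Vehicle mouse 15 stood apart for Spp1 (37469, others up to 2736), Irf8 (1003) and Ppbp (194). Vehicle mouse 12 was apart for Cd68 (10689, the lowest), Cd79b (700.1) and Dhx30 (305), mouse 13 for Casp1 (6776, others up to 4480), and mouse 14 for Pold1 (4.83).

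Among Ac-6-FP libraries, mouse 20 was apart for Prtn3 (4405), Elane (5132), Anapc5 (4468), Ctsd (11010) and, as the lowest, Pla2g7 (2127). Mouse 16 was apart for Mcl1 (5707), Isg20 (623), Ly6g (16.2) and, as the lowest, Ccl4 (2903) and Plaur (830.0). Mouse 18 was the highest for GSMG0040128 (29.3) and Dhx30 (522), and mouse 19 for Fos (59920), Idi1 (357), Hba-a1 (6822) and Hba-a2 (4124).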

How the results depend on the processing

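The numbers of called genes changed with most settings, while the directions of Casp4, Ptafr and Il18 were kept in 27 of 27. Their groups did not overlap, so leaving out libraries or changing the filter could not have turned these directions. Against 11 genes higher, 2 lower and 2 called above 0 in all 10 libraries, limma gave 4, 1 and 1 with no filter, 4, 0 and 0 when a group mean of 100 was required, and 18 higher with robust empirical Bayes. It gave 0, 0 and 0 with only genes above 0 in all 10 libraries, quantile normalization, genes detected as a covariate or all 20 libraries in 1 fit, and edgeR on whole reads did too. DESeq2 gave 92, 65 and 56. Leaving out 1 replicate gave 0 to 122 higher, 0 to 11 lower and 0 to 17 above 0 in all 10. Of settings chosen after seeing the data, filtering in the Ly6Chi groups alone, centring within GC classes and edgeR without mouse 15 gave 0, 0 and 0, DESeq2 without mouse 15 gave 144, 65 and 95, and leaving out vehicle mice 12, 13 and 14 gave 1, 15 and 0. The cause was not tested. Quantile normalization moved the median change of the 5733 genes by -0.15, from 0.06 to -0.09. The difference in genes detected was 2074 to 3572 with 1 replicate left out, and passed the threshold without mouse 11 (3572 genes, exact permutation p = 0.0317).

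For the difference between subsets, the fit paired by mouse called 0 genes and the fit with no replicate block 3. Requiring a group mean of 100 gave 2, and leaving out 1 replicate 0 to 4. Genes near 0 have the least depth, since a 0 allows up to 3 reads.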
